A study of Mus musculus with 30 samples.

Results

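The response described here is that of IRF2-deficient DC3.2 cells to interferon alpha. DC3.2 is a mouse dendritic cell line, and the 4 libraries, of 30 in the series, were chosen by their labels: IRF2KO cells after 2 hours with 5000 U/mL interferon alpha (2 libraries) against IRF2KO cells kept for the same time in media alone (2 libraries). The series holds 24 replicated libraries, 2 for each of 4 genotypes (WT, IRF1KO, IRF2KO and the IRF1/IRF2 double knockout, DKO) in media, interferon alpha or interferon gamma. A further 6 libraries stand 1 to a condition. WT and DKO cells given the same interferon alpha and the same media were used only to set the IRF2KO response against. The labels used here do not say whether a knockout line is 1 clone or whether the 2 replicates are separate cultures. The p-values therefore measure a spread between replicate libraries that may be technical. That spread was pooled over all 24 replicated libraries and is not that of the 4 compared libraries alone.

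Type I interferons such as interferon alpha bind the receptor IFNAR1/IFNAR2, whose kinases JAK1 and TYK2 phosphorylate STAT proteins such as STAT2. These join IRF9 to form the complex ISGF3, which binds interferon-stimulated response elements, repeats built around GAAA, in the promoters of antiviral genes. IRF1 and IRF2 are related factors that recognise overlapping elements: IRF1 is itself interferon-induced and mostly activates, while IRF2 is present at rest and was first described as an antagonist of IRF1, and is also known as an activator of some immune genes.

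Expression was given as TPM, a measure of transcript abundance that is corrected for transcript length and scaled so that every library has the same total. Sequencing depth is unknown, since TPM keeps none. The 4 IRF2KO libraries each held between 10921 and 10981 genes at 1 TPM or more (10911 to 11101 over the 24 replicated libraries), and replicates correlated at r of 0.9913 to 0.9958 across genes on the log2(TPM + 1) scale. The transcript of the targeted gene did not mark the knockout: Irf2 stood at 18.2 and 17.4 TPM in IRF2KO media against 23.4 and 25.2 TPM in WT media, which a sum over the whole gene cannot relate to the protein. Of the dendritic cell markers, Itgax, which encodes CD11c, was at 35.1 and 45.8 TPM in media and 43.3 and 45.1 TPM with interferon alpha, while Flt3 was at 0 in all 4 IRF2KO libraries. Macrophage genes were high, with Lyz2 between 1338 and 1476 TPM and Cd68 between 1001 and 1050 TPM. The 11 lymphocyte markers summed to between 0 and 0.38 TPM, and of 10 fibroblast markers 9 were under 1 TPM in all 4 libraries.

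Interferon alpha raised 164 of 11842 tested genes in IRF2KO cells and lowered 1, at an adjusted p under 0.05 in limma. The largest increases were in genes that block viral translation and replication: Ifit1, Cmpk2, Ifit3, Rsad2 and Isg15 rose from about 2 TPM or less to at least 86.8 TPM in every treated library. The percentage of all tested genes called was 1.38% in the higher direction and 0.00844% in the lower. The increases ranged from 0.58 to 7.08 on the log2(TPM + 1) scale, with a median of 1.49 beside 0.07 over all tested genes; 131 of the 164 exceeded 1, 58 exceeded 2 and 17 exceeded 4. In all 164 genes both treated libraries lay above both media libraries, as they did in 21.3% of all tested genes, and the 164 were chosen by a test on the same values. In media 45 of the 164 averaged under 1 TPM and 6 were at 0 in both libraries; after 2 hours 32 averaged at least 100 TPM. Together the 164 genes took 2763 and 2768 TPM in the 2 media libraries and 10059 and 8571 TPM in the 2 treated ones. With the replicate number as a block 213 genes were called higher and 2 lower. Without the first interferon alpha library 108 were called, all of them higher, and with the compared groups fitted alone 65 were called higher and 3 lower.

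Ifit1, whose product binds viral RNA that lacks the cap methylation of the host, was at 0.45 and 0.55 TPM in media and at 269 and 150 TPM with interferon alpha. Its log2 difference was 7.08 ± 0.22 (SE; adjusted p = 1.06e-11). Cmpk2, a mitochondrial nucleotide kinase, went from 1.99 and 1.08 TPM to 281 and 201 TPM (6.58 ± 0.24; adjusted p = 3.47e-11). Both were near the floor in media, and no treated library came near a media library. Ifit3, a partner of Ifit1, was at 0.48 and 0 TPM in media and at 132 and 86.8 TPM with interferon alpha. Rsad2 encodes viperin, a radical-SAM enzyme that makes a chain-terminating nucleotide, and it went from 1.11 and 0.63 TPM to 140 and 95.6 TPM (5.97 ± 0.22). Isg15, the ubiquitin-like modifier, went from 1.38 and 0.48 TPM to 132 and 98.7 TPM (5.94 ± 0.38). In these 5 genes the first treated library was the higher of the pair.

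The next 5 genes all started under 5 TPM. Tgtp2, an immunity-related GTPase, was at 0.62 and 0.75 TPM in media and at 91.0 and 76.2 TPM with interferon alpha (5.65 ± 0.30). Rtp4, a chaperone with antiviral activity, was nearly silent in media at 0.08 and 0 TPM and reached 49.7 and 41.0 TPM (5.47 ± 0.25). Cxcl10, a chemokine that draws activated T cells, spread most among the 10, with 3.60 and 3.54 TPM in media and 274 and 116 TPM with interferon alpha (5.29 ± 0.58; adjusted p = 2.39e-05). The remaining pair were members of the Ifit cluster. Gm14446, named Ifit1bl1 by RefSeq, went from 0.16 and 0.15 TPM to 44.7 and 32.0 TPM, and Ifit2 from 3.2 and 4.15 TPM to 198 and 120 TPM.

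**Figure D1:**
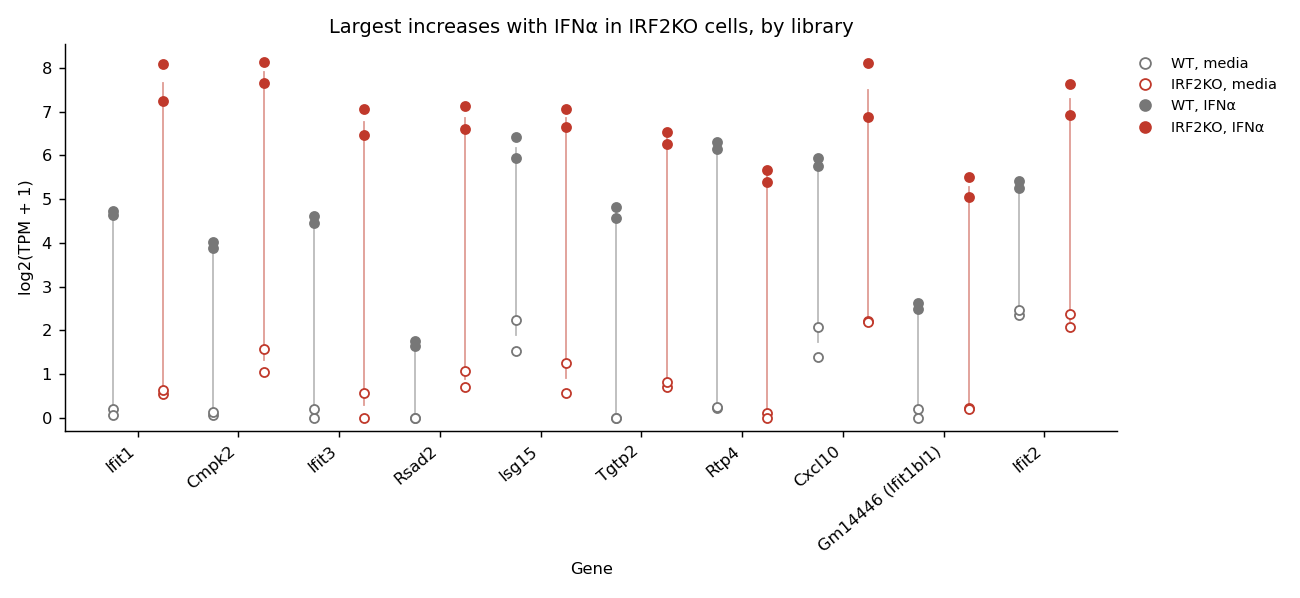
Level of the 10 genes with the largest called increases, as log2(TPM + 1), for each library of WT (grey) and IRF2KO (red) cells. Open circles are media, filled circles interferon alpha, and lines join the group means. In every gene both treated IRF2KO libraries sit above both media libraries, which the rule for choosing these genes required. This held in 21.3% of all tested genes. Rsad2 shows the widest gap between the treated genotypes (140 and 95.6 TPM in IRF2KO, 2.35 and 2.12 TPM in WT).

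The promoters of 4 of these genes are printed because they carry the element that ISGF3 and IRF proteins are known to bind, which was searched as GAAANNGAAA on both strands, with overlapping matches counted. Each window runs from 250 bases before to 50 bases after an annotated start (RefSeq, GRCm38.p6), which need not be the end of the gene's annotated span. The windows are written in the direction of the gene, with the matches in capitals (as the reverse complement where the match lies on the other strand). Ifit1 lies on the plus strand at chr19:34640639-34640938, with matches starting at -104 and -85 relative to the start, and Ifit3 on the plus strand at chr19:34583279-34583578, with matches at -156 and -122. The Ifit3 window and its matches lie inside that gene's annotated span, which begins at 34583119. Rsad2 lies on the minus strand at chr12:26456403-26456702, with 1 match at -120. Isg15 lies on the minus strand at chr4:156200769-156201068, with 3 overlapping matches at -78, -72 and -66.
Ifit1: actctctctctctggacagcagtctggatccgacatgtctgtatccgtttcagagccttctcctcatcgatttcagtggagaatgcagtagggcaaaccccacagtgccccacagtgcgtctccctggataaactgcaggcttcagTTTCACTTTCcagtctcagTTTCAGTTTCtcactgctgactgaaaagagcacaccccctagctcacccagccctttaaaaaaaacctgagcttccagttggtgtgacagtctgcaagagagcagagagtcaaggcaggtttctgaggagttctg
Ifit3: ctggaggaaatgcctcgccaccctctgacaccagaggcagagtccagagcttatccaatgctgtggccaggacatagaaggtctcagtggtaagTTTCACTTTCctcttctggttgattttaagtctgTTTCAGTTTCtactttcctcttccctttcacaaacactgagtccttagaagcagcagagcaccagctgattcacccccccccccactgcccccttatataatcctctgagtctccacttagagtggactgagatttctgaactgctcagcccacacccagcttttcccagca
Rsad2: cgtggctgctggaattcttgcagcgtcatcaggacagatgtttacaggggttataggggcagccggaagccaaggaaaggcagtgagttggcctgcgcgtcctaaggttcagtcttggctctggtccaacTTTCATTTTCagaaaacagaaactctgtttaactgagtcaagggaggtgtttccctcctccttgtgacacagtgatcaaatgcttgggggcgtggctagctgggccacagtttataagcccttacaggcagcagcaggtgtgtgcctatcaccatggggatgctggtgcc
Isg15: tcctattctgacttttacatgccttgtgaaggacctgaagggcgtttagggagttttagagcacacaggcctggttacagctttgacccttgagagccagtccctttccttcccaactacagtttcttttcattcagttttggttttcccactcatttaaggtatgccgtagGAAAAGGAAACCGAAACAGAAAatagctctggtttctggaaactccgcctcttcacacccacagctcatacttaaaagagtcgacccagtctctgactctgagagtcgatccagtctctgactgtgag
The element was found in 3.44% of all 32851 windows of this length. Windows were at hand for 129 of the 164 raised genes, under 80%, so a share over the raised genes is void and none is given. Cmpk2 and Ifit2 held no match in their windows, which says only that these letters are not there.

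The ISGF3 genes Stat2 and Irf9 rose, while those of the receptor and kinases did not pass the test. Stat2 went from 2.81 and 3.62 TPM to 35.2 and 38.4 TPM (log2 difference 3.17 ± 0.26), and Irf9 from 3.08 and 2.75 TPM to 28.0 and 24.1 TPM (2.79 ± 0.14). Of 11 tested genes of the receptor, JAK and STAT list 4 rose and 0 fell, with a median of 0.28; Stat3 was among them (1.01 ± 0.13). Ifnar1 differed by -0.11, Ifnar2 by 0.04, Jak1 by 0.16 and Tyk2 by 0.28.

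Among the IRF family 4 of 11 rose. With the replicate block 4 were called higher and 1 lower, and with quantile normalization 3 were called higher. Irf7, which drives further type I interferon production, went from 0.41 and 0.27 TPM to 35.9 and 26.4 TPM (4.57 ± 0.21). Irf1 went from 17.7 and 23.2 TPM to 160 and 140 TPM (2.82 ± 0.17). Irf2 passed narrowly, from 18.2 and 17.4 TPM to 26.8 and 28.5 TPM (0.61 ± 0.14; adjusted p = 0.0347), and lost its call when any 1 of the 4 libraries was left out and with trimmed-mean scaling. Of 11 feedback inhibitors 1 rose (2 with the block): Usp18, which removes ISG15 and blocks IFNAR2, went from 3.47 and 4.30 TPM to 144 and 112 TPM (4.72 ± 0.22). Socs1, an inhibitor of JAK kinases, stood at 28.0 and 37.9 TPM in media and at 218 and 75.3 TPM with interferon alpha; with the treated libraries so far apart its difference of 1.95 ± 0.89 did not pass (adjusted p = 0.792).

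Antiviral effector families rose broadly. All 5 tested IFIT genes rose, with a median of 5.07, and a sixth was under the filter; the family summed to 4.37 and 5.02 TPM in media and to 675 and 406 TPM with interferon alpha. Of 9 genes of the oligoadenylate synthetase list, enzymes activated by double-stranded RNA, 7 rose with a median of 1.98. Oas2 went from 0.39 and 0.26 TPM to 13.2 and 16.7 TPM (3.58 ± 0.35) and Oas3 from 6.41 and 5.36 TPM to 35.9 and 35.4 TPM (2.42 ± 0.27). In the ISG15 conjugation list 5 of 6 rose (median 1.69). Besides Isg15 and Usp18 these were the activating enzyme Uba7 (1.60 ± 0.22), the conjugating enzyme Ube2l6 (1.78 ± 0.30) and the ligase Herc6 (1.34).

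Of 22 virus restriction factors 14 rose, with a median of 1.07. Mx1, a dynamin-like GTPase that traps viral nucleocapsids, went from 0.06 and 0.12 TPM to 21.9 and 16.5 TPM (4.20 ± 0.27), and its paralogue Mx2 from 0.74 and 0.32 TPM to 22.8 and 20.3 TPM (3.89 ± 0.19). Bst2, which tethers budding virions, was high at rest, at 161 and 152 TPM, and rose to 286 and 293 TPM (0.88 ± 0.11; adjusted p = 0.000108). The kinase Eif2ak2, known as PKR, rose by 1.49, Zc3hav1 by 1.13 and Ifitm3 by 1.10. Ifitm1, Ifitm2, Ifi27, Ifi27l2a, Samhd1, Tor3a, Xaf1 and Tspo did not pass, with differences between -0.36 and 1.05.

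Of 21 genes of the RNA and DNA sensing list, which also holds adaptors such as Mavs and Myd88, the peptidoglycan sensors Nod1 and Nod2, the RNA editor Adar and the ubiquitin ligase Trim25, 13 rose (median 1.0). Nod1, Adar and Trim25 were among the 13. Ddx58, which encodes the RNA helicase RIG-I, went from 0.18 and 0.36 TPM to 13.3 and 10.8 TPM (3.35 ± 0.19), and Ifih1, which encodes MDA5, from 0.09 and 0.08 TPM to 1.46 and 0.91 TPM (1.0 ± 0.15). Dhx58, the regulatory helicase LGP2, went from 0.79 and 1.07 TPM to 7.33 and 4.64 TPM (1.83 ± 0.19). The PYHIN genes, many of which bind DNA, included Mnda, named Ifi211 by RefSeq, at 1.41 and 0.72 TPM in media and 47.0 and 26.2 TPM with interferon alpha (4.15 ± 0.34). Mndal rose by 2.02 ± 0.16, Ifi204 by 3.40 and Ifi203 by 1.80; these genes are close copies, and reads may be split between them. Tlr3, a receptor of double-stranded RNA, was at 1.24 and 1.47 TPM in media and 2.87 and 2.00 TPM with interferon alpha (0.53 ± 0.19; adjusted p = 0.538), and Mavs, the adaptor below the helicases, differed by 0.06.

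Most tested genes of the PARP, Schlafen, TRIM and nuclear body lists rose as well. The list of interferon-responsive PARPs, enzymes that modify proteins with ADP-ribose, also counts their partner Dtx3l, and 5 of its 7 tested genes rose (median 2.10), led by Parp14 with 0.55 and 0.42 TPM in media and 19.1 and 22.9 TPM with interferon alpha (3.88 ± 0.20). Dtx3l, a ubiquitin ligase that pairs with Parp9, rose by 2.43 ± 0.16 and Parp9 by 2.10 ± 0.15. Of 8 Schlafen genes 6 rose (median 1.45), led by Slfn8 with 2.65 and 2.55 TPM in media and 51.4 and 48.5 TPM after treatment (3.82 ± 0.16); without the first interferon alpha library 3 were called. Of 9 TRIM ubiquitin ligases 8 rose (median 1.88), among them Trim30a (3.33 ± 0.29), Trim34a (2.50 ± 0.18) and Trim21, a cytosolic antibody receptor (2.49 ± 0.16). Of 10 nuclear body and adaptor genes 9 rose (median 1.34), with Sp100 at 2.50, Daxx at 1.45 ± 0.14 and Sp110 at 1.35 ± 0.16.

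The interferon-inducible GTPases, which attack the vacuoles of intracellular pathogens, were raised in the larger part. Of 14 immunity-related GTPases 11 rose, with a median of 2.85; their sum went from 107 and 116 TPM in media to 1165 and 1060 TPM. Irgm1 went from 22.9 and 21.4 TPM to 427 and 369 TPM (4.11 ± 0.13), Igtp from 16.5 and 18.6 TPM to 242 and 233 TPM (3.69 ± 0.20), and Gm12250, which encodes Irgb10, from 0.31 and 0.37 TPM to 25.8 and 25.9 TPM (4.33 ± 0.22). Of 10 guanylate-binding protein genes 5 rose, with a median of 1.36; Gbp6 did so from 0.92 and 0.67 TPM to 18 and 15 TPM (3.28 ± 0.21) and Gbp4 from 29.2 and 36.7 TPM to 123 and 122 TPM (1.87 ± 0.28). The most abundant of them were already high in media and did not pass. Gbp2 was at 313 and 165 TPM in media and at 659 and 488 TPM with interferon alpha (1.32 ± 0.41; adjusted p = 0.265), Gbp3 at 226 and 220 TPM and at 377 and 357 TPM (0.72 ± 0.25; adjusted p = 0.452), and Gbp7 at 139 and 152 TPM and at 257 and 215 TPM (0.69 ± 0.16; adjusted p = 0.053). With the replicate block Gbp2 and Gbp7 passed, giving 7 of 10; Gbp7 also passed with trimmed-mean scaling.

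Few genes of antigen presentation passed the test after 2 hours. Of 18 MHC class I presentation genes 3 rose, with a median of 0.30. The peptide transporter genes were 2 of them: Tap1 went from 14.4 and 15 TPM to 74.9 and 60.8 TPM (2.13 ± 0.17), and Tap2 from 11.6 and 5.09 TPM to 30.9 and 17.8 TPM (1.48 ± 0.29; adjusted p = 0.00972), a call lost without the first interferon alpha library or the second media library. The third was Nlrc5, the class I transactivator (1.22 ± 0.27; adjusted p = 0.0275), which lost its call without either interferon alpha library or without the first media library. The class I genes themselves did not pass: H2-K1 was at 197 and 182 TPM in media and 259 and 217 TPM after treatment, and B2m at 1522 and 1473 TPM and 2263 and 1809 TPM. H2-T23, a non-classical class I gene and the most abundant of the list, lay lower after treatment, at 5802 and 4856 TPM in media and 1811 and 3150 TPM with interferon alpha (-1.15 ± 0.58; adjusted p = 0.792), and H2-Q4 differed by -0.58. The list summed to 10818 and 10052 TPM in media and to 8153 and 8847 TPM after treatment, but H2-T23 fell by more than this sum did. In WT cells the sum was 8585 and 12223 TPM in media and 13956 and 9436 TPM with interferon alpha, so it varied widely between replicates. Without the first interferon alpha library 1 of the 18 was called, and without the second 5 were.

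Of 6 immunoproteasome and activator genes 1 rose, Psmb9 (1.12 ± 0.22; adjusted p = 0.0129), with a median of 0.76 over the list. The call of Psmb9 was lost without either interferon alpha library or without the second media library. In the list 0 of the 6 were called without the first interferon alpha library or the second media library, 2 without the second interferon alpha library and 3 without the first media library. With the replicate block 4 of the 6 passed. The 14 constitutive proteasome genes gave 0 calls and a median of 0.04. Of 11 MHC class II genes 1 rose, the class II transactivator Ciita, from 8.19 and 7.98 TPM to 21.9 and 19.6 TPM (1.26 ± 0.25), a call lost without any 1 of the 4 libraries; the list's median was 0.05. Of 9 checkpoint and costimulatory ligand genes 1 rose: Cd274, which encodes PD-L1, went from 44.4 and 32.5 TPM to 122 and 90.3 TPM (1.44 ± 0.24; adjusted p = 0.00215), and lost its call without the first interferon alpha library or the second media library. With the replicate block 3 of these 9 were called.

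Single members of the inflammatory, stress and cell death lists passed. Of 18 cytokine and chemokine genes Cxcl10 alone was called, and 5 were with the replicate block. Ptgs2 was the 1 of 13 NF-kB feedback genes called (1.40 ± 0.31), a call lost without the first library of either group. Atf3, a stress-induced repressor, was the 1 of 14 immediate early and stress genes called (1.08 ± 0.22), a call lost without the first interferon alpha library or the second media library; with the block 2 were called. Daxx was the 1 of 16 cell death effectors (3 with the block, 2 without the first media library), where Gsdmd stood at 3.80 and 2.56 TPM in media and 4.89 and 3.31 TPM after treatment. None of 17 cell cycle genes was called (median 0.07). Of the marker lists, 1 of 8 dendritic genes (Ciita) and 1 of 10 macrophage genes rose. The latter was Fcgr1, the high-affinity IgG receptor, from 22.8 and 19.5 TPM to 32.9 and 32.5 TPM (0.61 ± 0.11); it was not called without the second media library. The 1 tested fibroblast gene, Vim, and the 1 tested erythroid or granulocyte gene, S100a8, did not pass.

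**Figure D2:**
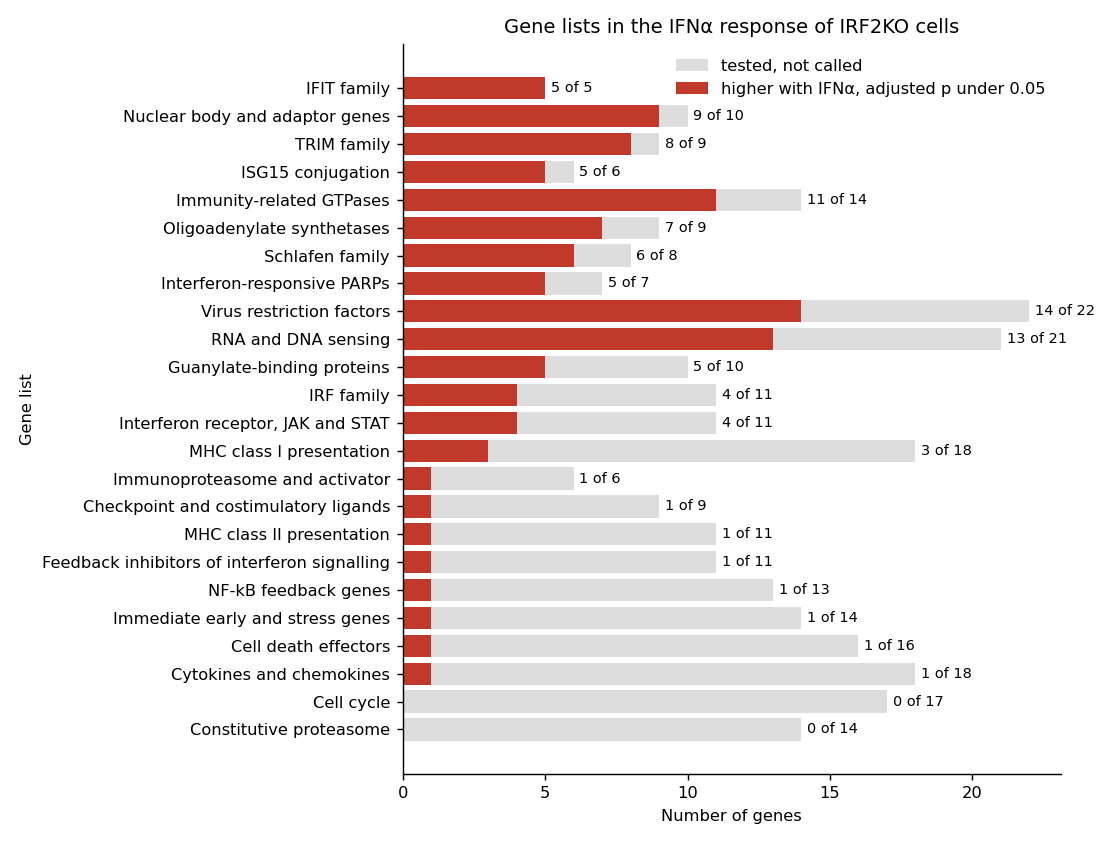
Genes tested (full bar) and called higher with interferon alpha in IRF2KO cells (red) for each of the 24 pathway lists, in number of genes and ordered by the share called. The IFIT, nuclear body, TRIM and ISG15 lists stand at the top, at 5 of 5, 9 of 10, 8 of 9 and 5 of 6, and the cell cycle and constitutive proteasome lists at the bottom with none called.

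The 24 pathway lists held 103 of the 164 raised genes, and 61 stood in none of those lists. Some of the 61, named after their values were seen, encode enzymes that act on nucleic acid. Trex1, an exonuclease that clears cytosolic DNA, went from 19.7 and 14.6 TPM to 99.6 and 56.0 TPM (2.08), Znfx1, a helicase-like RNA sensor, from 23.6 and 34.1 TPM to 114 and 135 TPM (2.09), and Mov10, an RNA helicase, from 4.74 and 5.41 TPM to 13.7 and 12.4 TPM (1.21). Others are at the cell surface: Ly6a, known as Sca-1, went from 11.1 and 11.6 TPM to 47.9 and 57.2 TPM (2.11), and Cd69, an early activation marker, from 0.82 and 1.69 TPM to 6.12 and 5.06 TPM (1.57). Il15ra (1.30), Tnfrsf1a (0.96), Il4ra (0.73) and Icam1 (0.62) encode cytokine receptors and an adhesion molecule. The 1 gene called lower, Wdr31, was at 1.93 and 0.79 TPM in media and 0 and 0.42 TPM after treatment (-0.94 ± 0.21; adjusted p = 0.0352), and lost its call without the first library of either group.

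Whether the response differed from that of WT cells was asked with a test of the difference between the responses. WT cells raised 123 genes (1.04% of those tested), and 114 genes were raised in both genotypes, 69.5% of the IRF2KO list and 92.7% of the WT list. The 50 genes called in IRF2KO alone had a median response of 1.12 there and 0.57 in WT, and 49 of them lay above 0 in WT. None of the 50, and none of the 9 called in WT alone, passed the test of the difference itself.

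That test called 8 genes (0.0676% of those tested): Rsad2, Cmpk2, Ifit1, Ifit2, Ifit3, Gm14446, I830012O16Rik (named Ifit3b by RefSeq) and Trim21. On the log2(TPM + 1) scale the response of each was larger in IRF2KO cells. All 8 were also raised in WT cells. The response of Rsad2 was 5.97 ± 0.22 in IRF2KO and 1.69 ± 0.22 in WT, a difference of 4.28 ± 0.31 (adjusted p = 5.17e-06). Its neighbour Cmpk2 differed by 2.73 ± 0.33 (adjusted p = 0.002); on GRCm38 Rsad2 spans chr12:26442743-26456452 and Cmpk2 chr12:26469117-26479837. The 5 IFIT genes differed by between 2.04 (Ifit3, adjusted p = 0.0327) and 2.62 (Gm14446, adjusted p = 0.000227), with Ifit1 at 2.53 ± 0.32; all 5 lie in one cluster on chromosome 19. Trim21, on chromosome 7, differed by 1.36 ± 0.23 (adjusted p = 0.0373). The annotated span of Gm14446 overlaps that of Ifit1, the family's members are similar in sequence, and the counting is not stated to use strand, so reads may be split between them.

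The median difference of the responses over all genes was 0.14, and 0.03 after scaling by a trimmed mean, under which all 8 calls were kept. Rsad2, Cmpk2, Gm14446 and Ifit1 kept their calls in all 8 fits that left out 1 library. The other 4 lost theirs in 1 or more of these fits, among them the fit without the first WT interferon alpha library, where 4 genes were called; 5 were called without the first IRF2KO interferon alpha library or without either WT media library. Differences from a floor near 0 rest on the pseudocount in size, and for Cmpk2 in direction. With 0.1 TPM added in place of 1, the difference for Rsad2 was 2.40 and that for Cmpk2 0.77, and no gene passed. With nothing added, the plain TPM ratio of Cmpk2 is larger in WT cells, which held 0.04 and 0.09 TPM in media. That of Rsad2 has no value in WT, at 0 TPM in both media libraries. With the compared groups fitted alone 1 gene passed.

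The levels after treatment were compared directly as well. Under interferon alpha Rsad2 was at 140 and 95.6 TPM in IRF2KO and at 2.35 and 2.12 TPM in WT (log2 difference 5.17 ± 0.22; adjusted p = 1.85e-09), and this difference passed under every alternative tried, at between 4.06 and 5.63. Cmpk2 was at 281 and 201 TPM against 13.6 and 15.2 TPM (3.95 ± 0.24), and Ifit1 at 269 and 150 TPM against 23.8 and 25.5 TPM (2.98 ± 0.22). Neither genotype's libraries overlapped the other's in these genes, which were picked by a test on the same libraries. The share over all genes was not counted. In media the same comparison gave 0.89 ± 0.22 for Rsad2 (adjusted p = 0.0905), 0.45 ± 0.22 for Ifit1 (adjusted p = 0.707) and 1.23 ± 0.24 for Cmpk2 (adjusted p = 0.0166), all from levels of about 2 TPM or less; the call of Cmpk2 was lost without the first IRF2KO media library or either WT media library. Between IRF2KO and WT under interferon alpha 74 genes were called higher (0.625% of those tested) and 41 lower (0.346%), 115 in all. This total was 54 without the first IRF2KO library, 71 and 70 without the first and second WT libraries, 254 with the replicate block and 10 with the compared groups fitted alone. These comparisons share libraries with the response and with each other, so their values are set side by side only.

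**Figure D3:**
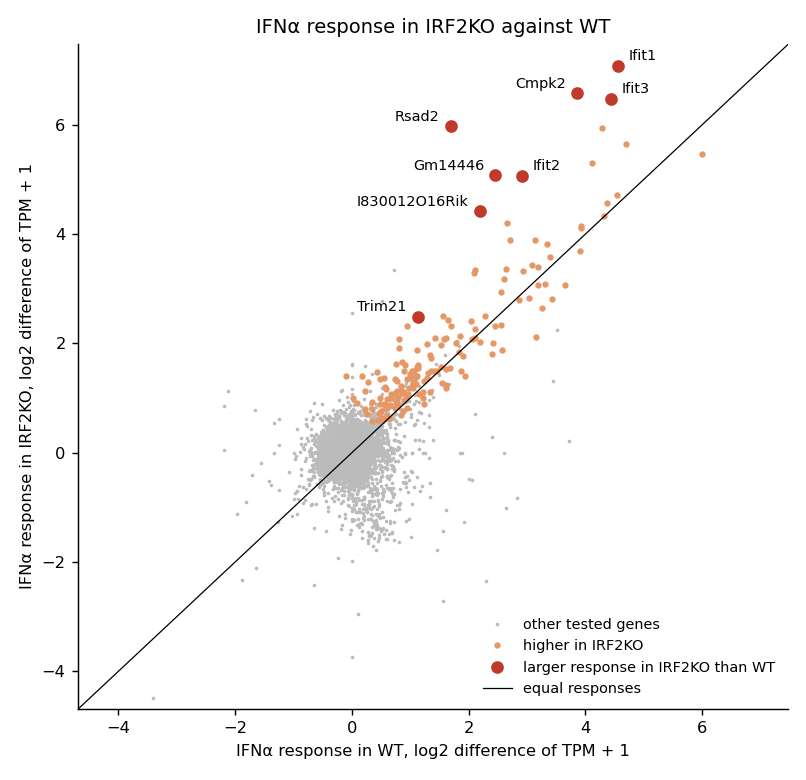
Response to interferon alpha of each of 11842 tested genes in WT (x axis) and IRF2KO cells (y axis), both as the log2 difference of TPM + 1. Orange points are the genes called higher in IRF2KO, and the 8 red points, named, had a called difference between the genotypes; they lie above the line of equal responses, Rsad2 at 1.69 in WT and 5.97 in IRF2KO.

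For core signalling genes no difference between the responses passed. Irf7 reached 35.9 and 26.4 TPM in IRF2KO and 35.9 and 34.3 TPM in WT, with responses that differed by 0.21 ± 0.30. For Irf9 the responses differed by -0.08 ± 0.20, for Usp18 by 0.18 ± 0.30 and for Irf1 by -0.21 ± 0.24. The adjusted p of these 4 differences ran from 0.923 to 0.96.

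Some genes entered the response from a resting level that differed from WT. In media 33 genes were called higher in IRF2KO than in WT (0.279% of those tested) and 66 lower (0.557%), 99 in all, with between 40 and 57 when any 1 of the 4 libraries was left out, 213 with the replicate block and 4 with the compared groups fitted alone. This comparison shares the IRF2KO media libraries with the response, so the levels are given as they stand. Several GBP genes started far above WT. Gbp2, at 313 and 165 TPM in IRF2KO media, was at 4.48 and 0.92 TPM in WT media and reached 34.8 and 33.7 TPM in WT cells with interferon alpha. Gbp3 was at 226 and 220 TPM in IRF2KO media, and at 5.34 and 5.19 TPM in WT media, rising to 25.5 and 26.5 TPM. Resting IRF2KO cells thus held more of both transcripts than treated WT cells. The responses of Gbp2 differed between the genotypes by -2.12 ± 0.57, which did not pass (adjusted p = 0.914). Gbp5 was at 13.6 and 8.86 TPM in IRF2KO media and rose to 51.1 and 37.9 TPM (1.91 ± 0.22), while WT cells held 0.12 and 0.12 TPM in media and 0.73 and 1.22 TPM with interferon alpha.

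Other genes started low and differed in whether interferon alpha brought them to the resting WT level. Epsti1 was at 0.58 and 0.55 TPM in IRF2KO media against 5.61 and 4.62 TPM in WT media, and reached 5.80 and 5.36 TPM with interferon alpha (2.07 ± 0.23), about the resting WT level. Ddx58 passed the resting WT level of 1.86 and 2.98 TPM, at 13.3 and 10.8 TPM, and Parp14 passed the resting WT 4 and 3.46 TPM, at 19.1 and 22.9 TPM. WT cells with interferon alpha held more of each than treated IRF2KO cells. They were at 8.67 and 10.7 TPM for Epsti1, 19.6 and 20.7 TPM for Ddx58 and 38.8 and 42.7 TPM for Parp14. Ifih1 and Nmi rose but remained below the resting WT level. Ifih1 at 1.46 and 0.91 TPM after treatment was under the 3.66 and 3.32 TPM of untreated WT cells. Nmi, an adaptor that binds STAT proteins, rose from 1.2 and 0.93 TPM to 4.45 and 4.02 TPM (1.34 ± 0.20) against 12.3 and 7.69 TPM in WT media. Tap2 likewise reached 30.9 and 17.8 TPM against 43.9 and 37.6 TPM in untreated WT cells.

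A further pair of genes were low at rest and were not called in the response. Gsdmd, the pore-forming executioner of pyroptosis, was at 3.80 and 2.56 TPM in IRF2KO media against 33.7 and 28.5 TPM in WT media, and its response was 0.29 ± 0.24 (adjusted p = 0.934). Ctso, a lysosomal protease, was at 0.03 and 0.16 TPM in media and 0.12 and 0.21 TPM with interferon alpha, against 9.10 and 7.97 TPM in WT media. Under interferon alpha the genotypes still differed by -2.78 ± 0.24 for Gsdmd and by -3.19 ± 0.17 for Ctso. Erap1, which trims peptides for class I molecules, was at 20.9 and 17.7 TPM in IRF2KO media and 42.8 and 30.7 TPM after treatment (0.88 ± 0.23; adjusted p = 0.117), with 50.2 and 56.0 TPM in WT media.

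**Figure D4:**
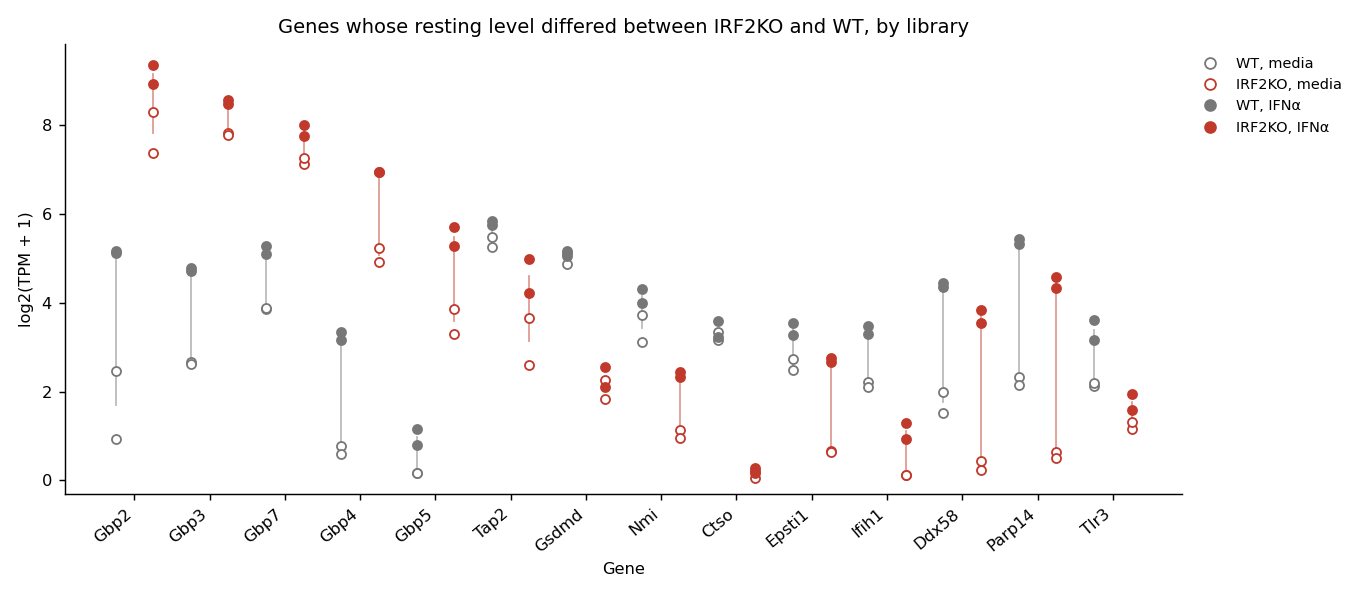
Level as log2(TPM + 1), by library, of 14 genes whose resting level differed between WT (grey) and IRF2KO (red); open circles are media and filled circles interferon alpha. The 5 GBP genes sit higher in IRF2KO media than in WT cells with interferon alpha, and Gsdmd and Ctso sit low in all 4 IRF2KO libraries.

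The same test was made against cells that lack IRF1 as well. DKO cells raised 115 genes (0.971% of those tested); 112 of them were shared with the IRF2KO response, 97.4% of the DKO list and 68.3% of the IRF2KO list. The response was smaller in DKO than in IRF2KO for 6 genes and larger for none (0.0507% of those tested), all of them GTPase genes except Parp14. Gm12250 was at 1.21 and 2.31 TPM in treated DKO cells against 25.8 and 25.9 TPM in treated IRF2KO cells, and its response was smaller by a log2 difference of -3.25 ± 0.30 (adjusted p = 0.000181). Tgtp2 reached 5.03 and 8.17 TPM in DKO cells against 91.0 and 76.2 TPM in IRF2KO cells (-2.75 ± 0.43; adjusted p = 0.0246). The others were Parp14 (-1.97 ± 0.29), Gbp6 (-1.92 ± 0.30), Tgtp1 (-1.92 ± 0.31) and Gbp11 (-1.83 ± 0.28). Tgtp1 and Tgtp2 are near-identical copies, and reads may be split between them.

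Over all genes the median of this difference was -0.16, and -0.01 with trimmed-mean scaling, under which Tgtp1 lost its call. Gm12250 kept its call in all 8 fits that left out 1 library. The other 5 were lost in at least 1 of these fits, and 1 gene was called without any 1 of the 4 IRF2KO libraries or either DKO media library, 2 without the first DKO interferon alpha library and 7 without the second. With a pseudocount of 0.1, or with the compared groups fitted alone, none was called. Rsad2, at 23.3 and 22 TPM in treated DKO cells, lay between IRF2KO and WT, and its response differed from that in IRF2KO by -1.48 ± 0.31, which did not pass (adjusted p = 0.206). For Ifit1 that difference was -0.89 ± 0.32 (adjusted p = 0.798).

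**Figure D5:**
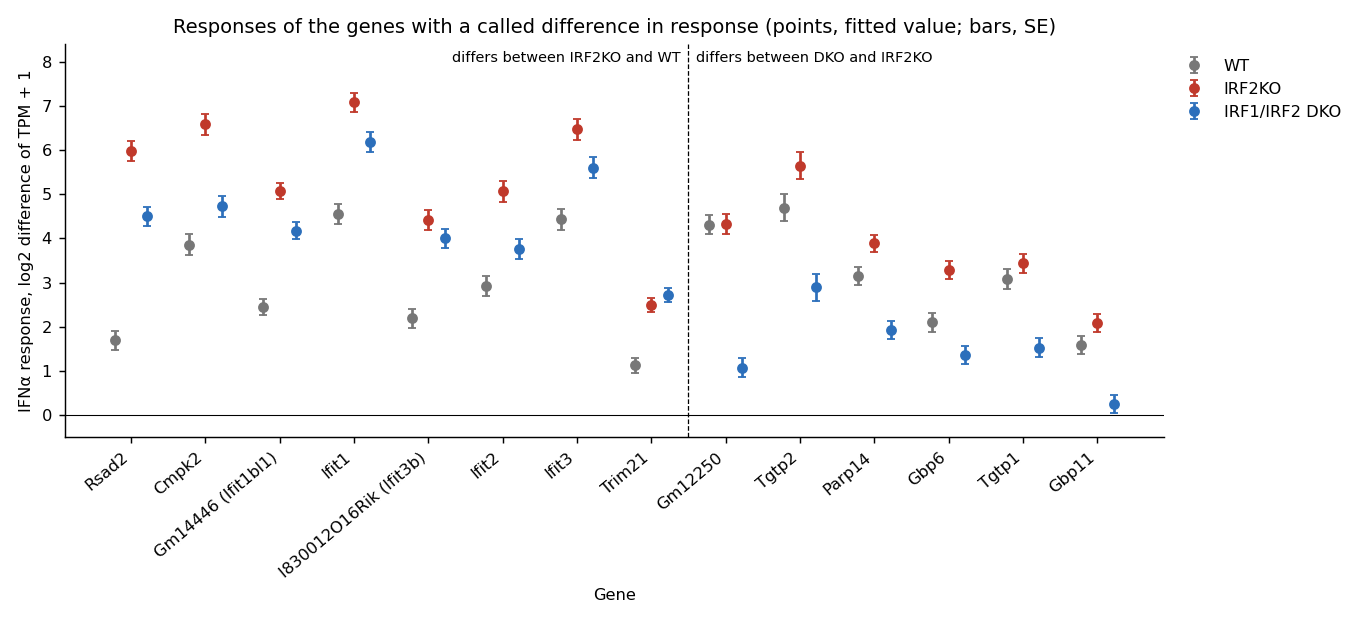
Response to interferon alpha (log2 difference of TPM + 1, with its standard error) in WT, IRF2KO and DKO cells for the 8 genes whose response differed between IRF2KO and WT and, right of the dashed line, the 6 whose response differed between DKO and IRF2KO. Gm12250 stands at 4.31 in WT, 4.33 in IRF2KO and 1.08 in DKO, and Rsad2 at 1.69, 5.97 and 4.50.

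A separate pair of IRF2KO libraries, 1 at 0 hours and 1 after 2 hours of interferon alpha, allowed the values to be read again without a test. They were quantified over another transcript set, so no level is compared across the sets. Of the 10349 genes at 1 TPM or more in this pair, 194 (1.87%) were higher by over 1 on the log2(TPM + 1) scale and 34 lower. Of the 164 raised genes 158 reached 1 TPM in at least 1 library of this pair. All 158 were higher after interferon alpha and 125 were higher by over 1, with a median difference of 1.79 beside 0.0011 over all genes. A gene under 1 TPM at 0 hours enters only if it is higher after treatment, so the count of 158 is partly fixed by the filter. The share of all genes that were higher at all was not counted. For the 8 genes with a larger response in IRF2KO, the difference in the single pair also exceeded that in the WT pair on the log2(TPM + 1) scale. The excess was 3.07 for Rsad2, 2.65 for Cmpk2, 1.82 for Ifit1 and 1.29 for Trim21, the lowest. The share of all genes for which this held was not counted. Rsad2 and Cmpk2 are neighbours and the IFIT genes lie in a cluster, so these genes are not all separate loci. The single libraries have no replicate.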

How the data were processed

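Gene expression in DC3.2 cells was read from the authors' deposited table of TPM values, not log-transformed. Per the submitters' processing notes the tools were bcl2fastq 2.20, Bowtie 0.12.2 and RSEM and the builds mm10 and GRCm38; their roles, settings and the annotation are not given in the sources used here. Values that shared a gene symbol were summed. TPM keeps no counts and is relative: a rise in some transcripts lowers the share of others.

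Differences were fitted with limma 3.58.1 (R 4.3.3) on log2(TPM + 1) with 12 group means over 24 libraries, a trended prior and 12 residual degrees of freedom, over the 11842 genes that reached 1 TPM in 2 or more libraries; calls were two-sided at a Benjamini-Hochberg adjusted p under 0.05 within each comparison. Errors are standard errors of the log2 difference, and a fold on this scale understates changes of low genes. A difference between 2 responses was an interaction term. The scripts were tested on simulated data.

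The main fit had no term for the replicate number. Replicate numbers were taken to pair samples in the replicate block alone, because titles carry 1 date-like code per number. Deviations correlated over 0.1 in 56 of 66 pairs of groups (IRF2KO interferon alpha with media, 0.23). The comparisons, the 24 pathway and 5 marker lists and the genes were chosen with earlier results of these data known. Genes named were the 10 called with the largest change in each direction at a mean of at least 5 TPM with non-overlapping groups, the 5 largest called interaction differences in each direction at such a mean, up to 4 called members of each list by smallest p, called members of a list in an interaction, and a fixed set; other names, such as list members given by their difference alone, were added after the values were seen. Some list members are not reported here. Symbols newer than the table's were matched through RefSeq synonyms. Alternatives were other pseudocounts, filters, scalings, a robust prior, fits of the compared groups only, the replicate block, a fold minimum and each library left out.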

Additional observations from a re-analysis of the deposited data

Results flagged for a closer look

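In 8 genes the response to interferon alpha differed between IRF2KO and WT cells by the interaction test, each time larger in IRF2KO on the log2(TPM + 1) scale. With 0.1 TPM added in place of 1, none passed. The differences, on the log2(TPM + 1) scale, were 4.28 for Rsad2, 2.73 for Cmpk2, 2.62 for Gm14446, 2.53 for Ifit1, 2.23 for I830012O16Rik, 2.15 for Ifit2, 2.04 for Ifit3 and 1.36 for Trim21. In 6 genes the response differed between DKO and IRF2KO cells, each time smaller in DKO, by -3.25 for Gm12250, -2.75 for Tgtp2, -1.97 for Parp14, -1.92 for Gbp6, -1.92 for Tgtp1 and -1.83 for Gbp11. Groups of 2 libraries are too small for the check of single outlying samples.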

How the results depend on the processing

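The IRF2KO response called 165 genes and between 128 and 215 under other pseudocounts, filters, scalings, priors, a fold of at least 2 and the replicate block (215), but 68 with the compared groups fitted alone (fewer samples), and 108 to 160 with 1 library left out. All 164 raised genes were also raised with the replicate block, 155 with trimmed-mean scaling and 105 in all 4 fits that left out a library. For WT (123) and DKO (120) the groups alone gave 56 and 38, and leaving out a library 87 to 104 and 84 to 96. The difference between IRF2KO and WT responses (8) gave 0 at a pseudocount of 0.1, 15 at 5, 14 with no filter, 1 with the groups alone, 8 with the replicate block and 4 to 9 with a library left out; at the pseudocount of 0.1, 377 genes had an unadjusted p under 0.05. The difference between DKO and IRF2KO (6) gave 0 at 0.1 (552 at an unadjusted p under 0.05), 12 at 5, 0 with the groups alone (602), 6 with the replicate block and 1 to 7. IRF2KO minus WT in media (99) gave 65 at a mean of at least 5 TPM, 213 with the replicate block, 4 with the groups alone, 58 at a fold of at least 2 and 40 to 57; under interferon alpha (115) it gave 254 with the block, 10 alone, 63 at a fold of at least 2 and 54 to 95. The single pair (194) gave 124 genes at a pseudocount of 5. The causes were not tested. No value of a named gene changed sign while called. With 2 libraries a group and depth unknown, small changes and genes near 0 TPM are the least certain.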

Other observations

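In the plot of the responses a group of points lay below 0 in IRF2KO and above 0 in WT. Picked by those values, with an IRF2KO response under -0.9 and a WT response between 0 and 1.2, it held 112 genes, of which 0 were called by limma in the IRF2KO response or in the difference between the genotypes. Their median level was 42.0 and 40.2 TPM in IRF2KO media, 11.4 and 24.6 TPM in IRF2KO with interferon alpha, 24.9 and 43.2 TPM in WT media and 67.1 and 29.9 TPM in WT with interferon alpha. Over the 24 libraries it ran from 10.1 to 67.1 TPM.

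Of the 164 genes raised in IRF2KO, 127 were higher in the first than in the second interferon alpha library, beside 57.5% of all tested genes, and 76 were higher in the first media library.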
